A study of Mus musculus with 12 samples.

Results

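The genes followed here are those of interleukin-11 and interleukin-6 family signaling: the ligands Il11, Il6, Lif and Clcf1, the receptor chains Il6st, Il11ra1, Osmr and Lifr, the transcription factor Stat3 and its feedback inhibitor Socs3. They were chosen by name as a pathway, 10 of 35523 genes in the series, and all 10 passed the minimum of 10 counts over the 12 libraries that left 18028 genes for testing. RNA-seq was performed on primary cardiac fibroblasts cultured from wild-type adult C57BL/6J mice of both sexes. The 4 groups, each with 3 libraries, were TGF-β with H1.0 siRNA, TGF-β with scramble siRNA, vehicle with H1.0 siRNA and vehicle with scramble siRNA. H1.0 is a linker histone encoded by H1f0, and the siRNA lowers it transiently in cells that still carry the gene. TGF-β was given at 10 ng/ml after 24 h in 0.1% serum, which the vehicle cells had as well. The length of the TGF-β exposure of these libraries was not given in the sources used here.

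Most cytokines of this family act through receptor complexes that share the chain gp130, encoded by Il6st. The ligands differ in the further chains they use, such as the interleukin-11 receptor α or the LIF receptor. The assembled complex activates Janus kinases, which phosphorylate STAT3, and active STAT3 induces Socs3, whose protein binds gp130 and shuts the pathway down. In heart fibroblasts interleukin-11 is known as a TGF-β-induced factor that acts back on the same cells and promotes fibrosis.

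H1f0, the gene targeted by the siRNA, had 29.4, 30.8 and 17.4 TPM with TGF-β and H1.0 siRNA, against 103, 111 and 101 TPM with TGF-β and scramble, and 36.8, 40.9 and 21.3 TPM with vehicle and H1.0 siRNA, against 97.2, 115 and 100.05 TPM with vehicle and scramble, so every library matched the siRNA of its label. H1f0 does not check the treatment (log2 fold change with TGF-β 0.06, adjusted p = 0.86 in scramble cells). Libraries held 36.2 to 36.3 M assigned reads with TGF-β and H1.0 siRNA, 19.9 to 24.3 M with TGF-β and scramble, 21.4 to 35.5 M with vehicle and H1.0 siRNA and 21.2 to 24.4 M with vehicle and scramble. The summed level of 9 fibroblast markers was 8917 to 9845 TPM with TGF-β and H1.0 siRNA, 9235 to 9990 TPM with TGF-β and scramble, 8714 to 9609 TPM with vehicle and H1.0 siRNA and 9567 to 10160 TPM with vehicle and scramble, and collagen genes made up most of it. H1.0 siRNA gave 1 of the 9 called higher and 4 lower with TGF-β (Pdgfrb, Lum, Tcf21 and Thy1), and 1 and 2 with vehicle (2 and 6, and 1 and 5, with the replicate block). TGF-β gave 3 higher and 4 lower in H1.0 siRNA cells and 1 and 3 in scramble cells (3 and 5, and 2 and 5, with the block). Pdgfra, Dcn and Ddr2 were called lower with TGF-β in both. The shares of all genes called in each comparison are given with the members below. Thy1 stood at 7.03 to 18.7 TPM in the 6 H1.0 siRNA libraries, against 45.1 to 151 TPM in the 6 scramble libraries. Macrophage markers were present too: the summed level of 13 markers was 797 to 1193 TPM with TGF-β and H1.0 siRNA, 1246 to 1321 TPM with TGF-β and scramble, 1489 to 1582 TPM with vehicle and H1.0 siRNA and 1694 to 1893 TPM with vehicle and scramble. Lyz2 held much of these sums. Sums without it, added after seeing the values, were 439 to 629, 548 to 597.5, 799.7 to 845.5 and 721 to 883 TPM in the same order of groups. Of 4 T cell markers Cd3e was listed at 0 in all 12 libraries, while Cd3d, Cd4 and Cd8a reached 0.0354, 2.51 and 0.253 TPM. The 4 summed to 0.276 to 2.77 TPM. The 5 mural markers summed to 7.59 to 20.5, 26.0 to 64.8, 2.19 to 7.68 and 8.07 to 27.35 TPM in the same order of groups. Of 6 cardiomyocyte markers Tnnt2 was abundant and moved with the siRNA, at 9.66 to 18.3 TPM in H1.0 siRNA libraries against 128 to 188 TPM in scramble libraries (11.9-fold lower with TGF-β and 9.87-fold lower with vehicle, adjusted p = 1.3e-07 and 1.8e-07). The other 5 summed to 2.14 to 6.00 TPM, a sum also added after seeing the values, with Myh6 at most 0.726 TPM. Ryr2 was also called lower under H1.0 siRNA with both treatments. The part of these markers in the results was not tested. In these bulk libraries fewer cells of a type and less RNA per cell cannot be told apart.

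**Figure D1:**
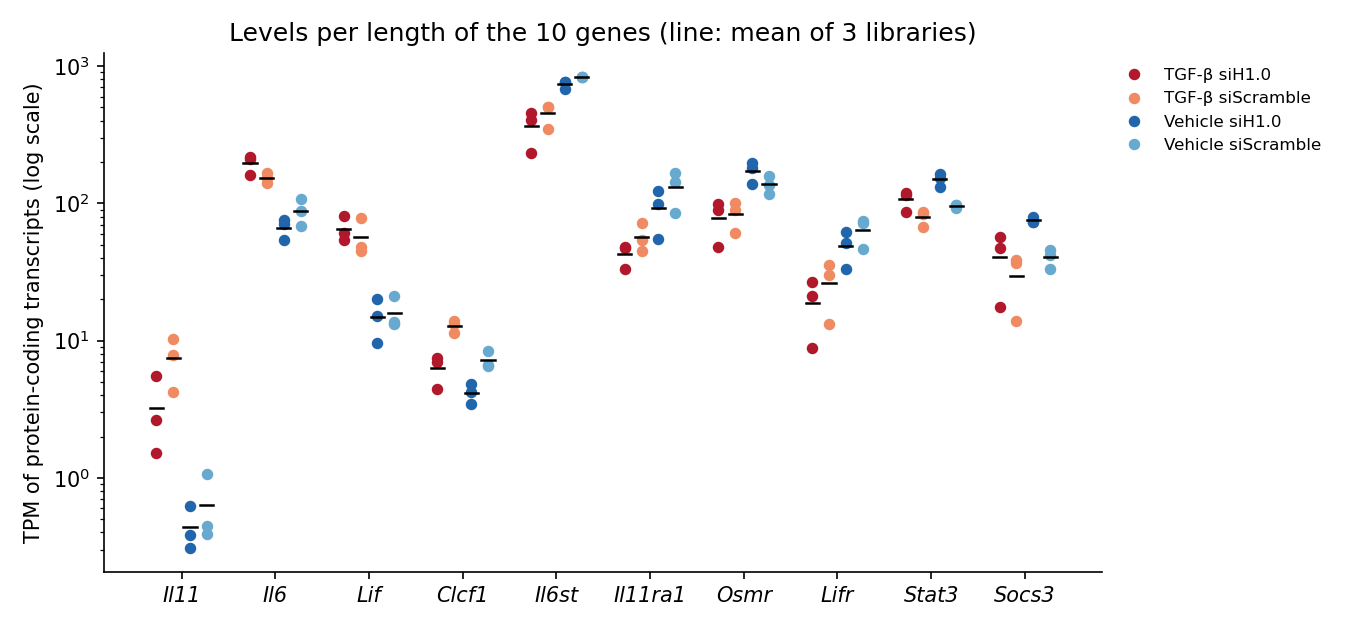
TPM summed over protein-coding transcripts (log scale) for the 10 genes, with a point for each library and a line at the mean of 3 libraries of a group. Il6st was the most abundant of the 10 in every group (365 TPM with TGF-β and H1.0 siRNA, 837 TPM with vehicle and scramble) and Il11 the least (3.21 and 0.636 TPM).

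Levels were compared between genes per length, as TPM over protein-coding transcripts. With TGF-β and H1.0 siRNA the order ran from Il6st (365 ± 119 TPM, SD, n = 3) through Il6 (197 ± 30.8), Stat3 (107 ± 17.6), Osmr (78.8 ± 27.3), Lif (65.2 ± 13.9), Il11ra1 (42.8 ± 8.10), Socs3 (40.8 ± 20.6), Lifr (18.9 ± 9.15) and Clcf1 (6.27 ± 1.59) to Il11 (3.21 ± 2.05 TPM). In that order Stat3 overlapped Osmr, Osmr overlapped Lif, Il11ra1 overlapped Socs3, Socs3 overlapped Lifr and Clcf1 overlapped Il11, within mean ± SD. With vehicle and scramble Il6st stood at 837 ± 2.01 TPM, followed by Osmr (138 ± 21.2), Il11ra1 (131 ± 41.7), Stat3 (95.8 ± 2.24), Il6 (87.8 ± 19.1), Lifr (64.3 ± 15.4), Socs3 (40.3 ± 6.25), Lif (15.9 ± 4.41), Clcf1 (7.18 ± 1.05) and Il11 (0.636 ± 0.377 TPM). There the neighbours from Osmr down to Lifr overlapped within mean ± SD, while Il6st and the 4 genes from Socs3 to Il11 stood apart from their neighbours. Il6 ranked 2 of the 10 in both TGF-β groups, 6 with vehicle and H1.0 siRNA and 5 with vehicle and scramble.

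TGF-β was compared with vehicle within each siRNA to ask how the pathway's transcripts stood in activated fibroblasts. Of the 4 ligands 3 were called higher with each siRNA, and of the 4 receptor chains 2 were called lower in scramble cells and 1 in H1.0 siRNA cells. In scramble cells 3 of the 10 genes were called higher (Il11, Il6, Lif) and 2 lower (Il6st, Il11ra1) by edgeR's quasi-likelihood test at a Benjamini-Hochberg adjusted p under 0.01, against 10.5% of all genes tested called higher and 7.94% called lower. Among H1.0 siRNA libraries the same 3 ligands were called higher and Osmr lower, against 9.14% of all genes higher and 6.60% lower. Fitting the replicate number as a block brought the count to 8 of 10 in scramble cells (4 higher, 4 lower), against 15.4% of all genes higher and 13.0% lower in that fit. In H1.0 siRNA cells the block also gave 8 of 10 (3 higher, 5 lower), against 14.2% and 12.6%. The fits that left out a library had no block. Without TGF-β H1.0 siRNA replicate 3 the count in scramble cells was 6. It was 2 without vehicle scramble replicate 1 or 2 or TGF-β scramble replicate 2 or 3. In H1.0 siRNA cells it was 5 without TGF-β scramble replicate 3 or TGF-β H1.0 siRNA replicate 2, and 2 without vehicle H1.0 siRNA replicate 2.

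Among the ligands, Il11 encodes the cytokine interleukin-11 (chr7:4772373-4782859 of GRCm38, minus strand). It had 41.1, 68.7 and 152 TMM-normalized counts with TGF-β and H1.0 siRNA, against 15.7, 9.47 and 8.13 with vehicle and H1.0 siRNA. In scramble cells it had 103, 178 and 263 with TGF-β, against 10.9, 19.9 and 9.83 with vehicle. All TGF-β libraries stood above all vehicle libraries, and replicate 3 was the highest of each TGF-β group. Il11 rose with TGF-β by a log2 fold change of 2.99 (SE 0.55, adjusted p = 0.0024) in H1.0 siRNA cells and of 3.74 (SE 0.55, adjusted p = 0.0006) in scramble cells. The vehicle values rest on 7.94 to 16 estimated reads a library. Without vehicle H1.0 siRNA replicate 2 or 3 the call in H1.0 siRNA cells was lost, with adjusted p up to 0.0134. Limma-voom did not call it either (adjusted p = 0.0214). With the replicate block, which those fits lacked, it was called (adjusted p = 0.00048).

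Il6 (chr5:30013114-30019981, plus strand) encodes interleukin-6. With H1.0 siRNA it had 3131, 3061 and 2423 normalized counts in TGF-β libraries, against 951, 754 and 1112 in vehicle libraries. With scramble it had 2067, 2186 and 1900 in TGF-β libraries, against 917, 1134 and 1467 in vehicle libraries. The TGF-β and vehicle libraries did not overlap with either siRNA. Il6 had a log2 fold change of 1.61 (SE 0.18, adjusted p = 0.00011) in H1.0 siRNA cells and of 0.81 (SE 0.18, adjusted p = 0.0054) in scramble cells. The call in scramble cells was lost, with adjusted p up to 0.0231, without vehicle scramble replicate 1 or 2 or any 1 of the 3 TGF-β scramble libraries. With the replicate block, which those fits lacked, it was kept (adjusted p = 0.0033).

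Lif (chr11:4257557-4272514, plus strand) encodes leukemia inhibitory factor. Its normalized counts were 3558, 3122 and 4850 with TGF-β and H1.0 siRNA, against 819, 516 and 1156 with vehicle and H1.0 siRNA. They were 2519, 2541 and 4475 with TGF-β and scramble, against 713, 704 and 1137 with vehicle and scramble. Every TGF-β library was above every vehicle library, and replicate 3 was the highest in all 4 groups. Lif rose by 2.20 (SE 0.33, adjusted p = 0.00069) on the log2 scale in H1.0 siRNA cells and by 1.90 (SE 0.33, adjusted p = 0.0014) in scramble cells, and both calls were kept without any 1 library.

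Clcf1 (chr19:4214238-4223490, plus strand) encodes cardiotrophin-like cytokine factor 1, a secreted member of the family. It had 216, 324 and 291 normalized counts with TGF-β and H1.0 siRNA, against 210, 195 and 243 with vehicle and H1.0 siRNA, and these ranges overlapped. With scramble it had 343, 490 and 494 with TGF-β, against 257, 298 and 325 with vehicle, which did not overlap. Clcf1 had a log2 fold change of 0.35 (SE 0.18, adjusted p = 0.17) in H1.0 siRNA cells and 0.59 (SE 0.18, adjusted p = 0.027) in scramble cells. With the replicate block the difference in scramble cells was called (adjusted p = 0.0029).

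**Figure D2:**
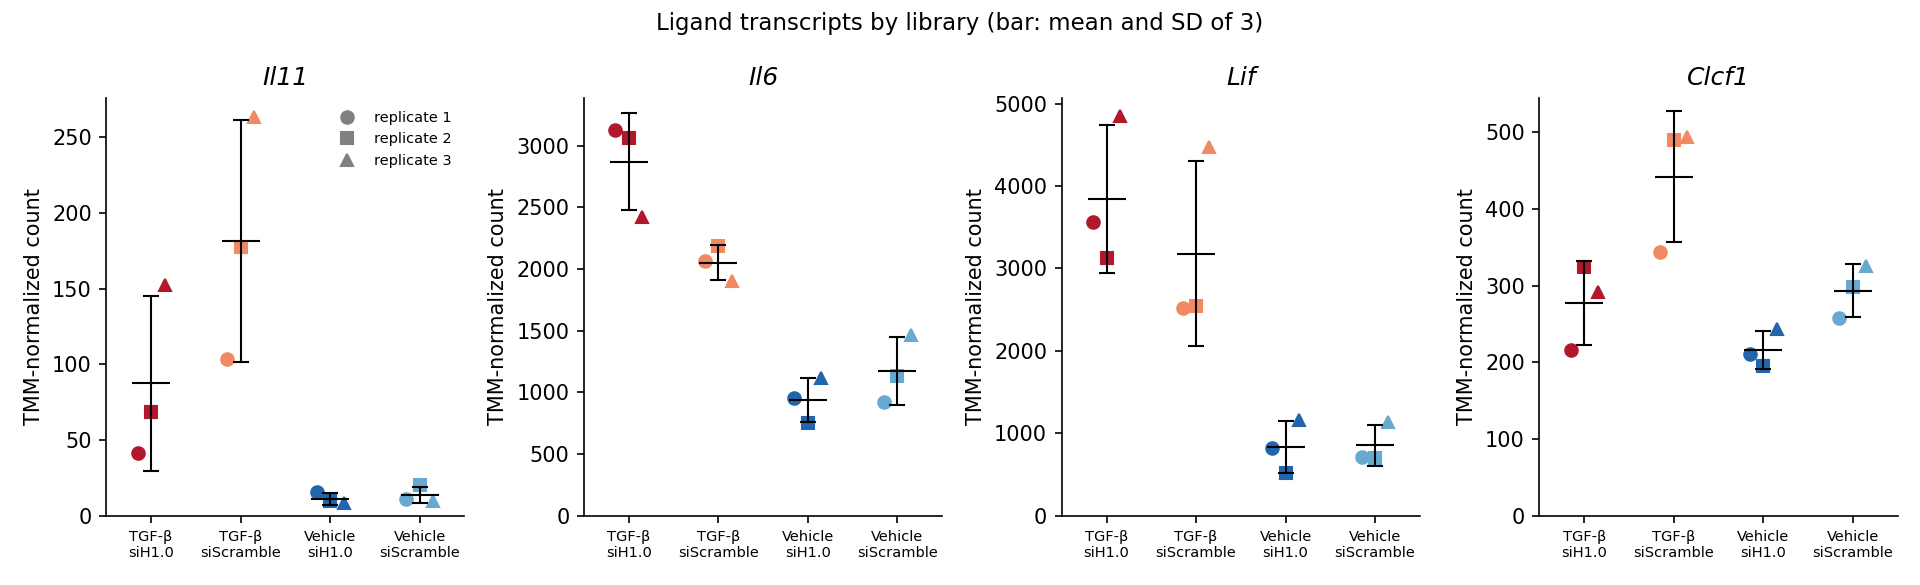
TMM-normalized counts of the 4 ligand genes in each library, with symbols for the replicate number and black bars for the mean and SD of 3 libraries. For Il11, Il6 and Lif every TGF-β library lay above every vehicle library. How many of all genes tested separated in this way was not counted.

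The 250 bases before the annotated start are shown for the 3 ligand genes that rose together. They are shown because each held a match to TGANTCA at 1 start. With any base allowed at N, these letters include the site bound by AP-1 factors but are wider than it. The RefSeq table (GRCm38.p6) matched 9 of the 10 genes with 12 starts, and each was searched on both strands for TGANTCA, the STAT site TTCNNNGAA, the CRE TGACGTCA and the SMAD box AGCCAGACA. Capitals mark the matches, which did not overlap each other. The stretches are Il11 start 2 at chr7:4778142-4778391 (minus strand), Il6 at chr5:30012864-30013113 (plus strand) and Lif at chr11:4257318-4257567 (plus strand).
Il11: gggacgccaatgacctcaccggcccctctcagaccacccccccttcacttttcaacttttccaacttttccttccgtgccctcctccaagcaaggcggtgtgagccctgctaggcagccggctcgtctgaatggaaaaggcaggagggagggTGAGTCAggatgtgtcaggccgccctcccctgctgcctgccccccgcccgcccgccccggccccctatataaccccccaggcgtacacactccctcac
Il6: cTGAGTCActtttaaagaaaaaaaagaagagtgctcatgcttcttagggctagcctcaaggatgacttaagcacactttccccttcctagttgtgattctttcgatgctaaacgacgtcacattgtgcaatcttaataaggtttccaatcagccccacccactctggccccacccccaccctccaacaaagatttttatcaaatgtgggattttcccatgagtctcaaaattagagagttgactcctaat
Lif: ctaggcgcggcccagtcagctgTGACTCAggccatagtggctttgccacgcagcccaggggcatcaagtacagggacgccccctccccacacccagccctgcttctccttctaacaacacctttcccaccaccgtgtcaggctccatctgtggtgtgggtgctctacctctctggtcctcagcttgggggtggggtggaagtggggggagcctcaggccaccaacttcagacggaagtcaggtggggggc
The match lay 98 to 92 bases before the start in Il11, 249 to 243 in Il6 and 228 to 222 in Lif. TGANTCA, with any base at N, was found before 6.75% of 32851 annotated mouse starts. The share with G or C at N, as in the matches shown, was not counted. Il11 start 2 is the first base of the transcript Il11-201, which held 98.3% of the gene's TPM with TGF-β and H1.0 siRNA and 89.4% with TGF-β and scramble, and the other start of Il11 had no match. The Lif stretch runs into Lif-202, whose first base is at 4257557 and which held 48.9% and 44.5% of the TPM in the same groups, while Lif-201 begins further in. For Il6 the start is the first base of Il6-201, which held 51.3% and 47.3% in these groups. Il6-204, with 38.9% and 44.35%, begins further in, at 30013321. The letters are a description of the sequence, and no binding was measured here.

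Of the receptor chains, Il6st and Il11ra1 were called lower with TGF-β in scramble cells and Osmr in H1.0 siRNA cells, and with the replicate block all 4 were called lower in both. Il6st (chr13:112464070-112510086, plus strand) encodes gp130, the chain that most of the family shares. It had 26354, 29673 and 16678 normalized counts with TGF-β and H1.0 siRNA, against 40631, 41587 and 40506 with vehicle and H1.0 siRNA. With scramble it had 27583, 27393 and 19102 in TGF-β libraries, against 40179, 43584 and 42810 in vehicle libraries. The vehicle libraries lay close together, the TGF-β libraries were all below them, and replicate 3 was the lowest of each TGF-β group. Il6st had a log2 fold change of −0.76 (SE 0.19, adjusted p = 0.012, not called) in H1.0 siRNA cells and −0.77 (SE 0.19, adjusted p = 0.0099, called) in scramble cells, a level 1.71-fold lower. With the replicate block both were called (adjusted p = 0.0014 and 0.0012). The call in scramble cells lies close to the threshold: it was kept without TGF-β H1.0 siRNA replicate 2 or 3 and was lost without any 1 of the other 10 libraries, with adjusted p from 0.0125 to 0.0389, and also with an offset for transcript length (0.0105). In H1.0 siRNA cells Il6st was called (adjusted p up to 0.0077) without TGF-β scramble replicate 3 or TGF-β H1.0 siRNA replicate 2.

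Il11ra1 (chr4:41699989-41769474, plus strand) encodes the interleukin-11 receptor α, which gives the complex its specificity for interleukin-11. Its normalized counts were 1729, 1716 and 1277 with TGF-β and H1.0 siRNA, against 3779, 3240 and 1943 with vehicle and H1.0 siRNA, and 2304, 1758 and 1454 with TGF-β and scramble, against 4934, 4505 and 2854 with vehicle and scramble. No TGF-β library reached the lowest vehicle library of its siRNA, and replicate 3 was the lowest of all 4 groups. For Il11ra1 the log2 fold change was −0.92 (SE 0.27, adjusted p = 0.024, not called) in H1.0 siRNA cells and −1.16 (SE 0.27, adjusted p = 0.0075, called) in scramble cells. In H1.0 siRNA cells Il11ra1 was called lower with the replicate block (adjusted p = 3.7e-05) and without vehicle H1.0 siRNA replicate 3 (adjusted p = 0.0057). The block kept the call in scramble cells (adjusted p = 8.5e-06), and the fits that left out a library had no block. The call in scramble cells was kept in 5 of the 12 fits that left out a library, and was lost, with adjusted p up to 0.0345, without vehicle scramble replicate 1 or 2, TGF-β scramble replicate 2 or 3, vehicle H1.0 siRNA replicate 2 or TGF-β H1.0 siRNA replicate 1 or 2. Values of Il11ra1 are uncertain in that all 10 of its transcripts had a near-identical copy in Il11ra2 or Gm13305 (at least 95% identity over at least 50% of the transcript). Of the estimated reads of the 3 genes, 99.6% to 100% were assigned to Il11ra1.

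Osmr and Lifr encode the signaling chains that pair with gp130 for oncostatin M and for leukemia inhibitory factor. Osmr (chr15:6813577-6874969, minus strand) had 7956, 8854 and 4293 normalized counts with TGF-β and H1.0 siRNA, against 14894, 16103 and 12171 with vehicle and H1.0 siRNA, a log2 fold change of −1.03 (SE 0.25, adjusted p = 0.0096). It had 7474, 8199 and 5269 with TGF-β and scramble, against 11017, 13102 and 9933 with vehicle and scramble, a log2 fold change of −0.70 (SE 0.25, adjusted p = 0.0496) that was called with the replicate block (adjusted p = 0.00066). Groups did not overlap with either siRNA. With the replicate block the call of Osmr in H1.0 siRNA cells was kept (adjusted p = 4.6e-05). The fits that left out a library had no block, and only 2 of the 12 kept this call. Those were the fits without TGF-β scramble replicate 3 and without TGF-β H1.0 siRNA replicate 2, and adjusted p reached 0.0362 in the others. With an offset for transcript length and no block, adjusted p for Osmr was 0.0107. Without TGF-β H1.0 siRNA replicate 3 Osmr was called lower in scramble cells (adjusted p = 0.0091).

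Lifr (chr15:7090614-7197489, plus strand) had 2164, 2806 and 903 normalized counts with TGF-β and H1.0 siRNA, against 5295, 6401 and 3551 with vehicle and H1.0 siRNA. It had 3434, 3136 and 1418 with TGF-β and scramble, against 7148, 7560 and 4892 with vehicle and scramble. All TGF-β libraries lay below all vehicle libraries, and replicate 3 was the lowest of each group. The log2 fold change, −1.38 (SE 0.41, adjusted p = 0.028) in H1.0 siRNA cells and −1.30 (SE 0.41, adjusted p = 0.034) in scramble cells, was the widest of the 4 receptor chains, and it was not called. With the replicate block both were called (adjusted p = 5.2e-05 and 8.3e-05).

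**Figure D3:**
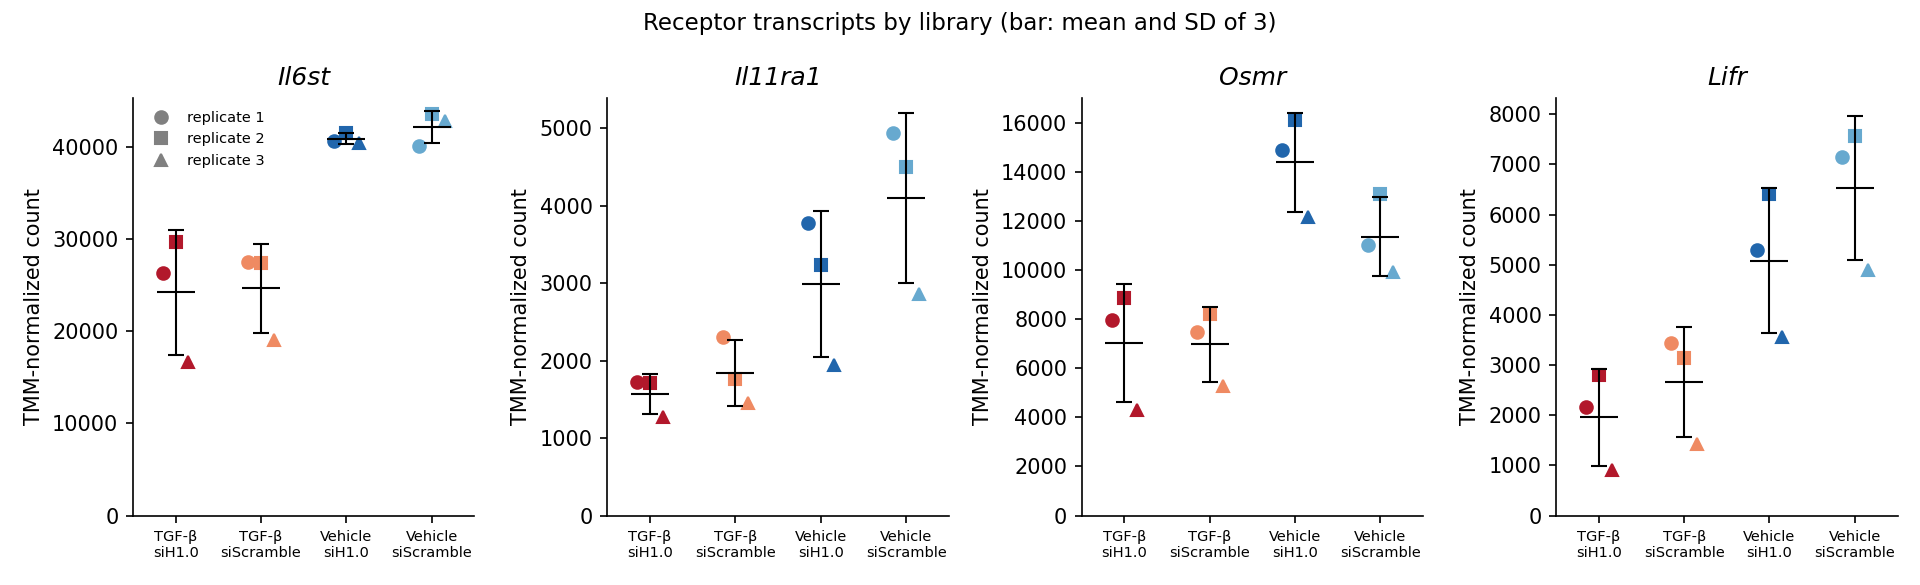
TMM-normalized counts of the 4 receptor genes in each library, with symbols for the replicate number and black bars for the mean and SD of 3 libraries. All TGF-β libraries of a siRNA lay below all vehicle libraries of that siRNA for the 4 genes, and replicate 3 (triangles) was the lowest of both TGF-β groups. The share of all genes tested with such a separation was not counted.

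Stat3 (chr11:100885098-100939540, minus strand) was the 1 member called between the siRNAs without the replicate block. With the block Clcf1 (with TGF-β) and Il11ra1 (with vehicle) were called lower as well. H1.0 siRNA was compared with scramble to ask how the loss of the histone stood with the same transcripts. With TGF-β 1 of the 10 genes was called higher and 0 lower, against 13.0% and 11.3% of all genes tested, and with vehicle 1 was called higher and 0 lower, against 13.4% and 11.2%. Both calls were Stat3, so the share of members called was not above that of all genes. Stat3 had 7961, 7761 and 5868 normalized counts with H1.0 siRNA and TGF-β, against 5419, 5397 and 4405 with scramble and TGF-β. With vehicle it had 10305, 9299 and 8830 in H1.0 siRNA libraries, against 5796, 6071 and 5853 in scramble libraries. H1.0 siRNA libraries were above scramble libraries under both treatments without overlap. Stat3 had a log2 fold change of 0.50 (SE 0.12, adjusted p = 0.0062) with TGF-β and 0.68 (SE 0.12, adjusted p = 0.00099) with vehicle, a level 1.60-fold higher. With the replicate block adjusted p was 0.00044 with TGF-β and 5.4e-05 with vehicle. In the fits that left out a library, which had no block, the vehicle call was kept without any 1 library. The TGF-β call was lost, with adjusted p up to 0.0296, without vehicle scramble replicate 2, any 1 TGF-β scramble library, or TGF-β H1.0 siRNA replicate 1 or 2. That left 0 members called, except without TGF-β scramble replicate 1, where Clcf1 was called, and without TGF-β H1.0 siRNA replicate 3 the count was 2. Stat3 shares 72 exon bases with Stat5a on the opposite strand, and whether reads were assigned by strand was not given in the sources used here.

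With TGF-β, Stat3 had a log2 fold change over vehicle of −0.40 (SE 0.12, adjusted p = 0.027) in H1.0 siRNA cells and −0.22 (SE 0.12, adjusted p = 0.19) in scramble cells. The replicate block called Stat3 lower in H1.0 siRNA cells (adjusted p = 0.0021). TGF-β and vehicle libraries did not overlap with either siRNA.

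Socs3 (chr11:117966079-117970047, minus strand) had 1711, 2061 and 654 normalized counts with H1.0 siRNA and TGF-β, against 1339, 1208 and 485 with scramble and TGF-β, and 2676, 2415 and 2602 with H1.0 siRNA and vehicle, against 1363, 1519 and 1119 with scramble and vehicle. Every vehicle library with H1.0 siRNA stood above every vehicle library with scramble, while the TGF-β libraries overlapped between the siRNAs, and replicate 3 was lowest in both TGF-β groups. H1.0 siRNA over scramble gave a log2 fold change of 0.55 (SE 0.40, adjusted p = 0.33) with TGF-β and 0.94 (SE 0.40, adjusted p = 0.088) with vehicle. TGF-β over vehicle gave −0.80 (SE 0.39, adjusted p = 0.16) in H1.0 siRNA cells and −0.40 (SE 0.40, adjusted p = 0.49) in scramble cells. Socs3 passed the test in none of these comparisons, with or without the replicate block.

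The stretch before the Socs3 start, at chr11:117969367-117969616 (minus strand), is shown because it was the only one of the 12 starts searched with a match to the STAT site TTCNNNGAA, here in capitals.
Socs3: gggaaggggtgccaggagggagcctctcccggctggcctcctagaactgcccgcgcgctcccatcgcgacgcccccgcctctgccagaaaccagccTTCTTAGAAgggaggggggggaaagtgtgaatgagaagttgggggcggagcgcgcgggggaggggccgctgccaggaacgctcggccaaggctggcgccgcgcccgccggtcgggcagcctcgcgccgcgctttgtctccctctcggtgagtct
The match lay 154 to 146 bases before the start, and 7.02% of all starts held these letters. The principal transcript, Socs3-201, begins further in. No start of the 10 genes that was searched held an exact match to the CRE TGACGTCA, found before 1.55% of all starts. None held the SMAD box, found before 0.301%. The Il6 stretch shown above holds cgacgtca, which differs from the searched CRE in its first letter.

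**Figure D4:**
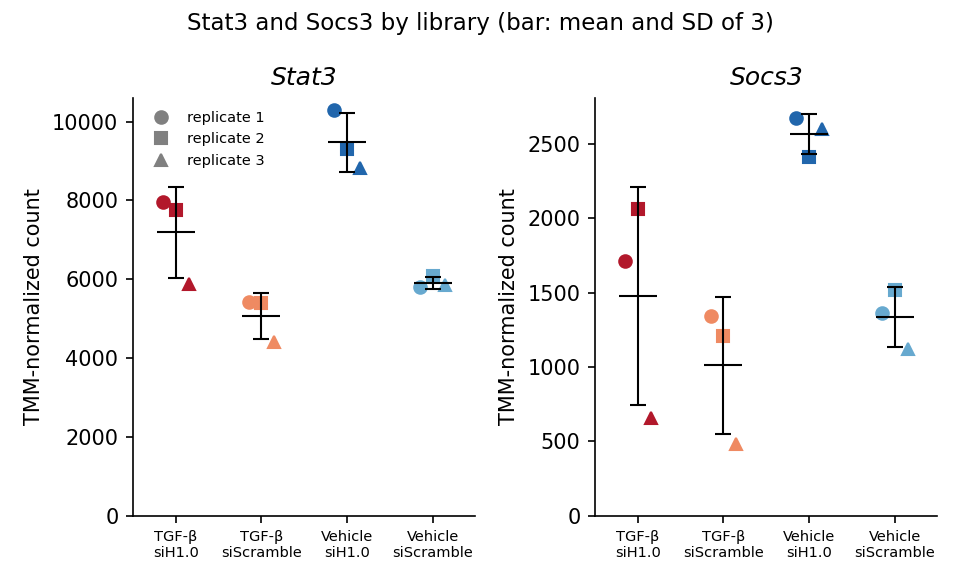
TMM-normalized counts of Stat3 and Socs3 in each library, with symbols for the replicate number and black bars for the mean and SD of 3 libraries. Stat3 libraries with H1.0 siRNA lay above those with scramble under the same treatment, and Socs3 libraries did so with vehicle.

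The ligands did not pass the threshold between H1.0 siRNA and scramble. Il11 with TGF-β had the values above, 41.1, 68.7 and 152 with H1.0 siRNA against 103, 178 and 263 with scramble: each H1.0 siRNA library was below the scramble library of its number, while the groups overlapped. Its log2 fold change was −1.06 (SE 0.46, adjusted p = 0.099; 0.022 with the replicate block), and −0.30 (SE 0.64, adjusted p = 0.76) with vehicle. Without TGF-β H1.0 siRNA replicate 3, the highest of its group, Il11 was called lower (adjusted p = 0.0099). Il6 with TGF-β went the other way, with every H1.0 siRNA library above every scramble library and a log2 fold change of 0.49 (SE 0.17, adjusted p = 0.049), against −0.32 (SE 0.18, adjusted p = 0.19) with vehicle. Clcf1 was below scramble without overlap under both treatments, by a log2 fold change of −0.67 (SE 0.18, adjusted p = 0.012) with TGF-β and −0.44 (SE 0.18, adjusted p = 0.085) with vehicle. Clcf1 with TGF-β was called lower with the replicate block (adjusted p = 0.00087) and without TGF-β scramble replicate 1 (adjusted p = 0.0045). For Lif the values were 0.27 (SE 0.31, adjusted p = 0.55) and −0.03 (SE 0.32, adjusted p = 0.96).

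Among the receptor chains, Il6st had log2 fold changes of H1.0 siRNA over scramble of −0.03 (SE 0.19, adjusted p = 0.93) with TGF-β and −0.04 (SE 0.19, adjusted p = 0.89) with vehicle. Osmr had 0.01 (SE 0.25, adjusted p = 0.98) and 0.34 (SE 0.25, adjusted p = 0.32), and Lifr −0.44 (SE 0.41, adjusted p = 0.45) and −0.36 (SE 0.41, adjusted p = 0.54). Il11ra1 had −0.22 (SE 0.27, adjusted p = 0.57) with TGF-β and −0.46 (SE 0.27, adjusted p = 0.21) with vehicle. With the replicate block Il11ra1 was called lower with vehicle (adjusted p = 0.0018), which made 2 calls of 10 in that comparison (1 higher, 1 lower), against 17.4% of all genes higher and 16.2% lower with the block. With TGF-β Clcf1 made it 2 (1 higher, 1 lower), against 17.6% and 16.0%.

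**Figure D5:**
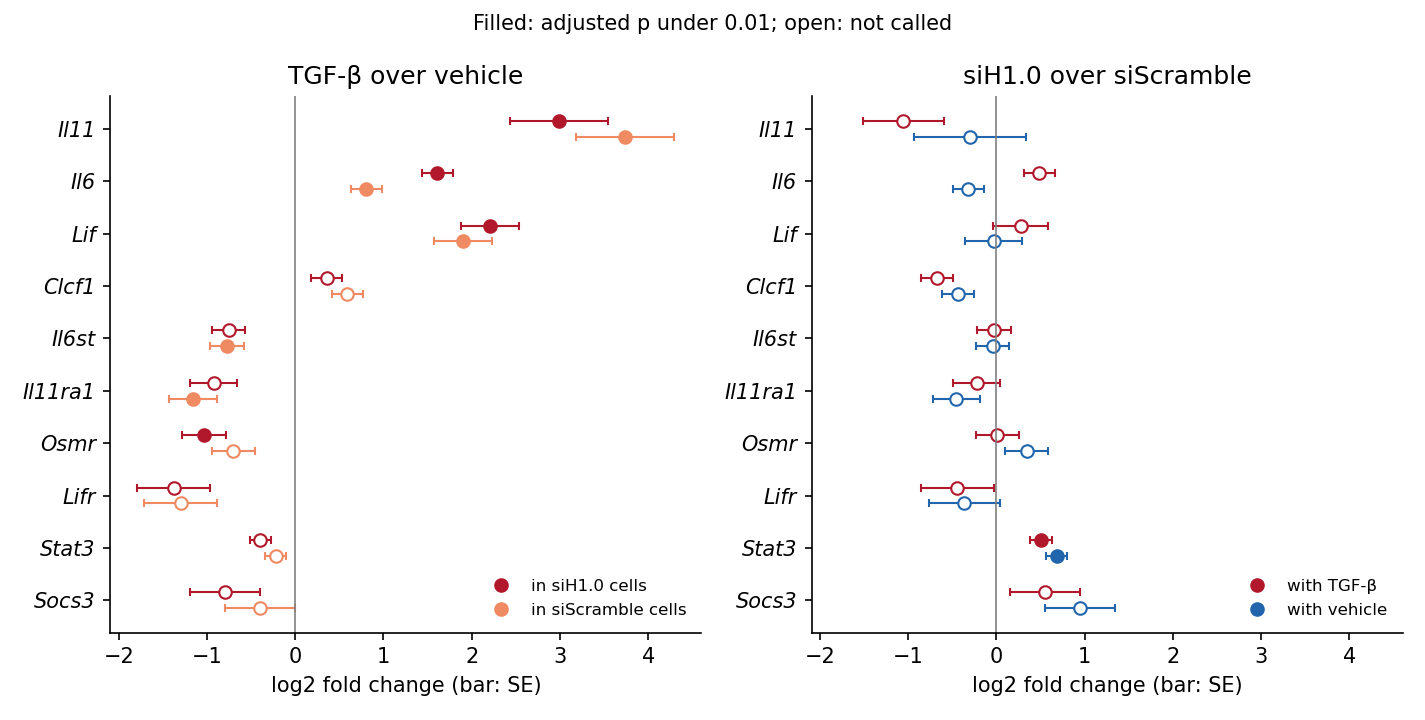
Log2 fold changes with SE for the 10 genes, TGF-β over vehicle on the left and H1.0 siRNA over scramble on the right. Filled points passed an adjusted p under 0.01. Ligands lay right of 0 and receptor chains left of 0 with TGF-β under both siRNAs, and only Stat3 was called between the siRNAs.

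Whether the TGF-β difference itself depended on the siRNA was tested by the interaction, the log2 fold change with TGF-β in H1.0 siRNA cells less that in scramble cells. None of the 10 genes was called higher or lower, against 0.0333% and 0.0111% of all genes tested, and DESeq2 and limma-voom called 0 as well. At an unadjusted p under 0.05 there was 1 of the 10, and the share of all genes at that limit was not counted. With the replicate block the count was also 0, against 0.410% of all genes higher and 0.244% lower. The interaction was 0.80 (SE 0.25, adjusted p = 0.21) for Il6, the 1 gene at an unadjusted p under 0.05, and −0.75 (SE 0.79, adjusted p = 0.79) for Il11. For the other 8 genes it ran from −0.40 for Socs3 to 0.30 for Lif, each with an SE of at least 0.17 without the block. With the block the SEs of the 10 genes were smaller, from 0.11 for Stat3 to 0.68 for Il11. For Lif the SE was 0.16 with the block against 0.45 without it, and for Lifr 0.23 against 0.58. No difference in the TGF-β response between the siRNAs passed the threshold for these genes in either fit. With these SEs that does not show that the responses were the same.

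The transcripts behind the gene sums differed in kind. Il11ra1-206, a retained-intron transcript of 523 bases, held 60.9% ± 1.31 of the TPM of Il11ra1 with TGF-β and H1.0 siRNA and 53.3% ± 5.58 with vehicle and scramble (SD, n = 3), and the coding transcript Il11ra1-204 held 30.2% ± 0.81 and 35.1% ± 4.08. Within Il6st the 8678-base coding transcript Il6st-203 held 16.4%, 16.7% and 19.9% of the TPM with TGF-β and H1.0 siRNA, 10.7%, 11.7% and 11.4% with TGF-β and scramble, 11.7%, 11.7% and 13.1% with vehicle and H1.0 siRNA and 7.53%, 8.93% and 9.24% with vehicle and scramble. The libraries with both TGF-β and H1.0 siRNA were above all others, and those with neither were below all others. The 322-base coding transcript Il6st-205 held 27.5%, 27.0% and 21.5% in the TGF-β H1.0 siRNA libraries, below the 30.6% to 36.8% of the other 9 libraries. Salmon divides shared reads among transcripts, so these shares are estimates, and they were not tested.

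For Clcf1 the main coding transcript Clcf1-201 held 70.1% ± 6.75 of the TPM with TGF-β and H1.0 siRNA and 74.4% ± 5.19 with TGF-β and scramble, against 55.0% ± 9.92 with vehicle and H1.0 siRNA and 53.7% ± 9.71 with vehicle and scramble. The retained-intron transcript Clcf1-203 held 27.5% ± 4.57 and 18.1% ± 4.57 in the TGF-β groups, against 38.5% ± 4.75 and 31.9% ± 1.81 in the vehicle groups. Summing protein-coding transcripts alone, an alternative chosen after seeing these shares, left the counts of members called at 5, 4, 1, 1 and 0 for TGF-β in scramble cells, TGF-β in H1.0 siRNA cells, the siRNA with TGF-β, the siRNA with vehicle and the interaction. In scramble cells Clcf1 was then called higher with TGF-β and Il11ra1 was no longer called (adjusted p = 0.00552 and 0.0106).

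The other ligands described here were scarce. Of 7, Il31 was under the count minimum and 6 were tested. TGF-β against vehicle gave 0 calls higher and 1 lower (Ebi3) in H1.0 siRNA cells and 0 and 0 in scramble cells, while 0 were called between the siRNAs (Ctf1 lower under each treatment with the replicate block). Of all genes tested 9.14% were called higher and 6.60% lower with TGF-β in H1.0 siRNA cells, and 10.5% and 7.94% in scramble cells. Between the siRNAs 13.0% and 11.3% were called with TGF-β, and 13.4% and 11.2% with vehicle. Log2 fold changes with TGF-β had a median of −0.33 in H1.0 siRNA cells and 0.33 in scramble cells, against −0.01 and −0.01 over all genes tested.

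Ebi3, a subunit of interleukin-27, fell by 1.99 (SE 0.46, adjusted p = 0.0085) on the log2 scale with TGF-β in H1.0 siRNA cells, at 2.31 to 12.4 normalized counts with TGF-β against 28.8 to 37.1 with vehicle. Ctf1, which encodes cardiotrophin-1, had 26.4, 47.8 and 23.3 with H1.0 siRNA and TGF-β, against 71.7, 88.2 and 61.3 with scramble and TGF-β, a log2 fold change of −1.18 (SE 0.31, adjusted p = 0.011) that was called with the replicate block (adjusted p = 0.00034). Osm, the gene of oncostatin M, stayed between 4.14 and 17.1 normalized counts in all libraries, Ctf2 between 3.53 and 10.1, Il27 at 0 to 2.37 and Cntf at 0 to 40.0.

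Of the 5 other receptor genes, Il31ra was under the count minimum and 4 were tested. With TGF-β 0 were called higher and 2 lower in scramble cells, and 0 and 1 in H1.0 siRNA cells (2 lower with the replicate block). For H1.0 siRNA over scramble 0 were called higher and 1 lower with TGF-β (1 and 1 with the block), and 1 higher and 2 lower with vehicle. The shares of all genes called are those given for the other ligands above. Il6ra, the interleukin-6 receptor α, had 528, 601 and 208 normalized counts with TGF-β and H1.0 siRNA, against 2295, 2100 and 1642 with vehicle and H1.0 siRNA, and 252, 256 and 157 with TGF-β and scramble, against 818, 793 and 564 with vehicle and scramble. Il6ra fell with TGF-β by 2.17 (SE 0.33, adjusted p = 0.00079) in H1.0 siRNA cells and by 1.71 (SE 0.35, adjusted p = 0.0034) in scramble cells on the log2 scale. With vehicle it rose by 1.47 (SE 0.33, adjusted p = 0.0043) under H1.0 siRNA, and with TGF-β the difference was 1.01 (SE 0.34, adjusted p = 0.039), called with the replicate block (adjusted p = 0.0016).

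Il27ra, the interleukin-27 receptor α, had 125, 128 and 91.7 normalized counts with H1.0 siRNA and TGF-β, against 302, 226 and 194 with scramble and TGF-β, and 221, 178 and 173 with H1.0 siRNA and vehicle, against 650.2, 547 and 457 with scramble and vehicle. It fell under H1.0 siRNA by 1.07 (SE 0.20, adjusted p = 0.0016) with TGF-β and by 1.53 (SE 0.20, adjusted p = 0.00013) with vehicle. Il27ra and Il6ra are genes of blood cells too, and the macrophage sums given above were lower with TGF-β. The sums were lower with H1.0 siRNA too, and the sums without Lyz2, added after seeing the values, overlapped between the siRNAs. Of the 13 markers 7 with TGF-β and 9 with vehicle had a log2 fold change above 0, and 6 and 4 below 0 (medians 0.06 and 0.10). Adgre1 and Itgam were the 2 called higher with vehicle, where C1qb was called lower. With TGF-β the 2 called lower were C1qb and Lyz2. Of the 13 macrophage markers TGF-β gave 0 calls higher and 5 lower in H1.0 siRNA cells and 0 and 3 in scramble cells, and H1.0 siRNA gave 0 and 2 with TGF-β and 2 and 1 with vehicle. With the replicate block these counts were 0 and 9, 0 and 6, 2 and 4, and 3 and 2, beside the shares of all genes given above. The part of these cells in the results was not tested. Cntfr, the ciliary neurotrophic factor receptor, fell by 2.39 (SE 0.52, adjusted p = 0.0039) under H1.0 siRNA with vehicle, at 27.0, 15.4 and 17.7 normalized counts against 150.3, 98.0 and 66.3 with scramble. Il11ra2 had 0 normalized counts in 10 of the 12 libraries.

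Of 10 JAK and STAT pathway genes TGF-β gave 1 call higher and 0 lower in H1.0 siRNA cells (1 and 4 with the replicate block) and 0 and 2 in scramble cells (1 and 3 with the block), beside the shares of all genes given above. H1.0 siRNA gave 1 and 0 with TGF-β (1 and 2 with the block) and 0 and 0 with vehicle (2 and 1 with the block). The median response to TGF-β in scramble cells was −0.25 on the log2 scale, against −0.01 over all genes. The called genes included Tyk2, a Janus kinase, which fell by 0.60 (SE 0.08, adjusted p = 0.00047) with TGF-β in scramble cells and rose by 0.58 (SE 0.08, adjusted p = 0.00028) under H1.0 siRNA with TGF-β. Tyk2 had 1338, 1218 and 1084 normalized counts with H1.0 siRNA and TGF-β, against 824, 837 and 769 with scramble and TGF-β. Jak1, the kinase that gp130 chiefly uses, fell by 0.31 (SE 0.07, adjusted p = 0.0047) with TGF-β in scramble cells.

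Among 9 inhibitors and receptor-shedding proteases, 1 was called higher and 1 lower with TGF-β under each siRNA (with the replicate block 1 and 3 in H1.0 siRNA cells and 1 and 2 in scramble cells). Under H1.0 siRNA 1 and 1 were called with TGF-β (1 and 2 with the block), and 2 and 1 with vehicle (2 and 3 with the block). These counts stand beside the shares of all genes given for the other ligands above. The receptor-shedding proteases of this list, Adam10 and Adam17, differed in direction between the siRNAs. Adam10 had 6176, 5710 and 5918 normalized counts with H1.0 siRNA and TGF-β, against 12694, 11965 and 13050 with scramble and TGF-β, and fell by 1.08 (SE 0.06, adjusted p = 1.1e-06) on the log2 scale. With vehicle it had 4711, 4272 and 4608 with H1.0 siRNA, against 9147, 8766 and 9360 with scramble, and fell by 1.00 (SE 0.06, adjusted p = 1.4e-06). Adam17 had 2630, 2520 and 2347 with H1.0 siRNA and TGF-β, against 1876, 1641 and 1705 with scramble and TGF-β, and rose by 0.52 (SE 0.07, adjusted p = 0.00022). Neither gene's siRNA groups overlapped.

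Of 24 genes known as STAT3 targets TGF-β gave 2 calls higher and 4 lower in H1.0 siRNA cells (3 and 6 with the replicate block) and 2 and 6 in scramble cells (2 and 8 with the block). Of all genes tested 9.14% were called higher and 6.60% lower in H1.0 siRNA cells, and 10.5% and 7.94% in scramble cells. For H1.0 siRNA over scramble the shares were 13.0% and 11.3% with TGF-β and 13.4% and 11.2% with vehicle. The median of the 24 with TGF-β was −0.45 on the log2 scale in H1.0 siRNA cells and −0.20 in scramble cells, against −0.01 and −0.01 over all genes. In scramble cells Timp1, an inhibitor of matrix proteases, rose by 1.92 (SE 0.25, adjusted p = 0.00031) and Vegfa, an angiogenic factor, by 1.42 (SE 0.34, adjusted p = 0.0081). The acute-phase genes Lbp and Saa3 fell by 1.87 (SE 0.23, adjusted p = 0.0002) and 1.83 (SE 0.45, adjusted p = 0.0098). Fgl2, a prothrombinase, fell by 1.96 (SE 0.31, adjusted p = 0.00084), and Cp, the copper carrier ceruloplasmin, by 1.24 (SE 0.25, adjusted p = 0.0033). Under H1.0 siRNA with TGF-β 3 of the 24 were called higher and 6 lower (4 and 7 with the block), with a median of 0.07 against 0.04 over all genes, and with vehicle 3 and 3 (5 and 5 with the replicate block). The higher ones were Lbp, the survival gene Mcl1 and the AP-1 gene Junb, at 0.92, 0.60 and 0.42. The 4 widest of the lower ones were Lcn2, Birc5, Fgl2 and Hif1a, at −2.33, −2.05, −1.43 and −1.10. Birc5 is also a gene of dividing cells and Fgl2 of macrophages. In the interaction 0 genes were called in each of these other lists, and 1 STAT3 target with the replicate block.

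The genes whose log2 CPM followed Il11 most closely over the 12 libraries, of 11049 with a mean normalized count of at least 100, were Olfm2 (Pearson r = 0.971), Pdgfc (0.967), Stk38l (0.963), Relt (0.960) and Odc1 (0.960). The points share treatment groups, and much of each r is the gap between TGF-β and vehicle libraries: Olfm2 averaged 637 and 1132 normalized counts in the TGF-β H1.0 siRNA and TGF-β scramble groups, against 23.7 and 39.7 in the vehicle groups with H1.0 siRNA and scramble. Among the pathway genes themselves, r with Il11 was 0.866 for Lif, 0.741 for Clcf1 and 0.739 for Il6, and it lay between −0.897 for Il6st and −0.618 for Stat3 for the remaining 6.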

How the data were processed

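RNA-seq of 12 libraries of mouse cardiac fibroblasts (4 groups of 3) was analysed from transcript quantifications. The authors depleted ribosomal RNA, read both fragment ends and ran Salmon on an mm10 index of Ensembl transcripts, and the submitters' processing notes name Salmon, DESeq2 and mm10. The deposited files give for each transcript an estimated count (expected count), which need not be whole, a TPM value and an effective length. The study's other assays were not analysed here.

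Transcripts were matched to GENCODE M21 (GRCm38) by identifier: 115973 of 117135 matched, with 99.5% to 99.6% of the reads, and 1162 stayed out. Estimated counts were summed per gene (35523 genes) and rounded. Library totals ran from 19.9 to 36.3 M, so genes with few reads, such as Il11 with vehicle, are the least precise. Genes with 10 or more counts in total (18028) were TMM-scaled and tested in 1 model of the 4 groups by the quasi-likelihood F test of edgeR 4.0.16 in R 4.3.3. P-values were adjusted over all of them after Benjamini and Hochberg, and a gene was called below 0.01, limits taken from the study's methods. The script was tested on simulated data. SE is the log2 fold change divided by the square root of F. Normalized counts are TMM-scaled CPM times the mean library total. Replicates were separate biological samples by the labels' methods, and no 2 libraries of a group were as alike as counting error allows (chi-square over its degrees of freedom 9.41 to 69.3).

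Deviations from the group means of libraries with the same replicate number correlated at 0.113 to 0.481 in all 18 pairs over 14267 genes with a mean normalized count of at least 10, and at 0.067 to 0.337 over all 18028, against −0.418 to 0.125 for other pairs over the 14267 and −0.275 to 0.064 over all, so the lowest same-number values overlap the others on the 14267. The numbers were therefore taken to pair the samples, although the labels do not say what they share, and values with the number as a block are given beside the members and list counts whose calls they change. Alternatives were DESeq2 1.42.0, limma-voom (limma 3.58.1), RLE scaling, other count minimums, a length offset, thinning, the block, each library left out, and coding transcripts alone. The main fit and all alternatives but the block left the replicate number out of the model. The pathway genes, lists and tests were chosen with earlier results of these data known. Named genes were all 10 members, the tested genes of the other ligand and receptor lists (1 ligand-list gene is not reported here and was left out of that list's counts), up to 4 called genes a direction from the remaining lists, and the 5 genes most like Il11 in log2 CPM. Copies were sought with blastn 2.17.0.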

Additional observations from a re-analysis of the deposited data

How the results depend on the processing

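With the replicate number as a block, 8 members were called for TGF-β in scramble cells, 8 in H1.0 siRNA cells, 2 for H1.0 siRNA over scramble with TGF-β and 2 with vehicle, against 5, 4, 1 and 1 without it. The block also called more of all genes: 15.4% higher and 13.0% lower for TGF-β in scramble cells, against 10.5% and 7.94% without it. Its shares were 14.2% and 12.6% for TGF-β in H1.0 siRNA cells. For H1.0 siRNA over scramble they were 17.6% and 16.0% with TGF-β and 17.4% and 16.2% with vehicle. The block changed no other call of a member than those given above. DESeq2 called 7 for TGF-β in H1.0 siRNA cells and 2 for the siRNA with TGF-β, and the length offset also gave 2 for the siRNA with TGF-β. The other counts were within 1.5 times. Leaving out 1 library at a time gave 2 to 6 and 2 to 5 members for TGF-β in scramble and H1.0 siRNA cells, 0 to 2 and 1 to 1 for the siRNA with TGF-β and vehicle, and 0 to 0 for the interaction.

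Of 50 member values, 6 changed sign under some alternative, none of them called and none over 0.30 in size. Osmr under H1.0 siRNA with TGF-β was −0.0287 with DESeq2, −0.0285 with RLE scaling, −0.0333 with limma-voom, −0.00975 with at least 10 counts in 3 libraries, −0.0084 after thinning and −0.0171 with the block, and −0.19 to 0.27 with a library left out. The interaction of Il6st was −0.00656 with limma-voom, −0.107 with the length offset and −0.15 to 0.23 with a library left out. With a library left out the other values ran from −0.622 to 0.0703 (Il11, siRNA with vehicle), −0.36 to 0.24 (Lif, siRNA with vehicle), −0.20 to 0.18 (Il6st, siRNA with TGF-β) and −0.43 to 0.26 (Lifr, interaction). The cause was not tested. Of the member values under the other alternatives, 421 of 450 kept direction and call, 17 gained and 4 lost a call, and with a library left out 536 of 600 kept both, 6 gained and 40 lost a call. With 3 libraries a group, differences of the size of the SEs given above cannot be told from the spread between libraries.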
